A study of Mus musculus with 10 samples.

Results

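Eph receptors are receptor tyrosine kinases that bind ephrins on the surface of a neighbouring cell. The receptors Ephb2, Ephb3, Ephb4, Ephb6, Epha1, Epha2 and Epha4 and the ligands Efnb1, Efnb2 and Efna1 were taken by name as positioning genes of the crypt and villus. These 7 receptors and 3 ephrins are 10 of the 22 Eph and ephrin genes listed for each library. Transcription was measured by RNA-seq of crypts from the jejunum of 5 WT mice and 5 mice with conditional deletion of Arid3a (KO), 1 library per labelled replicate. The KO animals were Villin-CreERT2; Arid3a fl/fl, so that the tamoxifen-activated Cre recombinase removes Arid3a in intestinal epithelial cells and leaves the gene intact in stroma. Both genotypes received tamoxifen on 3 consecutive days and were examined 1 month after the first injection. The strain, age and Cre or floxed alleles of the WT animals are not given in the sources used here. Polyadenylated RNA of the crypt fraction was sequenced after the villi had been removed.

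Binding of an Eph receptor to an ephrin on an adjacent cell signals in both cells and usually ends in repulsion, which keeps cell populations apart. In the intestine, WNT signaling maintains EphB2 and EphB3 in cells near the crypt bottom, whereas B-type ephrins are found on the differentiated cells above them. This opposed arrangement is known to hold proliferating cells and Paneth cells in place along the crypt-villus axis. B-type ephrins span the membrane and can signal inward, whereas A-type ephrins are held by a lipid anchor.

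Deletion was visible in the targeted gene. Arid3a (chr10:79927043-79955018, GRCm38) stood at 2.42 ± 0.397 CPM (read counts scaled to normalized library sizes, mean ± SD, n = 5) in WT and at 0.673 ± 0.350 CPM in KO, without overlap. Total expected counts were 27050455 to 28152743 in WT and 28314069 to 31053622 in KO. Over all 14719 tested genes the median log2 fold change was -0.03, and becomes -0.16 when libraries are scaled by their totals only. At an adjusted p threshold of 0.05, 4167 genes (28.3%) differed, of which 2298 (15.6% of all tested) rose and 1869 (12.7%) fell in KO, compared with 1541 and 4030 under scaling by totals. The replicates were labelled as separate samples, but the identifiers of the animals fall into 6 stems, 3 in each genotype and none shared. Litter or cage, where a stem stands for either, and genotype therefore cannot be told apart. The epithelial markers Epcam, Vil1, Cdh1, Krt8, Krt20 and Cdx2 were present in every library, with a summed level of 4506 to 5359 CPM in WT and 5561 to 6341 CPM in KO. Of these 6 markers 2 rose, Vil1 (log2 fold change 0.80) and Krt20 (1.47), beside 15.6% of all tested genes. Epcam (0.18), Cdh1 (0.01), Krt8 (0.06) and Cdx2 (-0.07) did not pass the threshold.

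The promoters of 4 members are shown because the genotypes did not overlap for Epha1 and Efnb2, and because Ephb2 and Ephb4 are the members that fell. Each sequence is the 250 bases before the RefSeq start site (GRCm38.p6), read 5′ to 3′ on the strand of the gene. They belong to Epha1 (chr6:42373269-42373518, minus strand) and Efnb2 (chr8:8661243-8661492, minus strand), and to Ephb2 (chr4:136836013-136836262, minus strand) and Ephb4 (chr5:137349859-137350108, plus strand). Capitals mark a match to the ARID3A letters ATCAAA.
Epha1: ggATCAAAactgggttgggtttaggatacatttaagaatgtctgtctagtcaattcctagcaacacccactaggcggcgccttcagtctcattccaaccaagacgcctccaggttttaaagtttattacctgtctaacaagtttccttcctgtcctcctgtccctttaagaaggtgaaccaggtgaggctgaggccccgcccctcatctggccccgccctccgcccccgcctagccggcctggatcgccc
Efnb2: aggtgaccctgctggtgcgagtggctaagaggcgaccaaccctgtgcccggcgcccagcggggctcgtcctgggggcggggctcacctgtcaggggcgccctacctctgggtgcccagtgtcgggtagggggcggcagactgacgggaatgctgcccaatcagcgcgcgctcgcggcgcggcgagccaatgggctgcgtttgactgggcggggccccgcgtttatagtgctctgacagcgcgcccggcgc
Ephb2: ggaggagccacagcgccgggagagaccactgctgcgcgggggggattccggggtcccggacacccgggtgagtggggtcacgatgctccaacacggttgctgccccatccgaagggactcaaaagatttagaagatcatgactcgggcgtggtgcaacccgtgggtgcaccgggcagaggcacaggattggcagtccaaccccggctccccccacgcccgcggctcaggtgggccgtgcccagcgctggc
Ephb4: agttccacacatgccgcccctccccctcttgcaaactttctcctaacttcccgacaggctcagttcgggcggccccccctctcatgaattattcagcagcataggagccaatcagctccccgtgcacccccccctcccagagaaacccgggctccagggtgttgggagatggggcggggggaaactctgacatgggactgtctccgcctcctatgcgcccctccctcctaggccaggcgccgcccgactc

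All 10 members were matched to 11 RefSeq promoter windows of 300 bases, which run from 250 bases before to 50 bases after the start site. Motif letters were searched on both strands. ATTAAA or ATCAAA, letters bound by ARID3A, occurred in 1 of the 11 windows, that of Epha1 near its upstream end, and in 22.9% of all 32851 promoter windows. CTTTGAA or CTTTGAT, the letters of the TCF/LEF factors that mediate WNT signaling, occurred in 1 of the 11 windows, that of Epha2, and in 8.65% of all windows. The reverse of the second TCF/LEF string contains ATCAAA, so the motifs can overlap. The HNF4 letters CAAAGTCCA and the HNF1 motif were found in 0 of the 11 windows, and in 0.475% and 0.00913% of all windows. A match describes the letters of these windows and is no evidence of binding. GC content was 58.0% for Epha1, 72.3% for Efnb2, 68.7% for Ephb2 and 64.7% for Ephb4, against a median of 52.7% over all windows.

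Among the 9 members with enough counts to be tested, 3 rose in KO (Epha1, Efnb2 and Efna1), 2 fell (Ephb2 and Ephb4) and 4 did not pass the threshold (Ephb3, Epha2, Epha4 and Efnb1). Over all tested genes 15.6% rose and 12.7% fell. Ephb6 was too low to be tested. In the receptors the direction was mixed, with 1 of 6 tested higher, 2 lower and a median log2 fold change of -0.29. The ligands gave 2 of 3 higher, none lower and a median of 0.47. The median over all 9 tested members was 0.07, beside -0.03 for all genes. The CPM of the 2 genotypes did not overlap for Epha1 and Efnb2, both higher in KO, and for no member lower in KO, where 12% of all tested genes were separated upward and 7.63% downward.

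**Figure D1:**
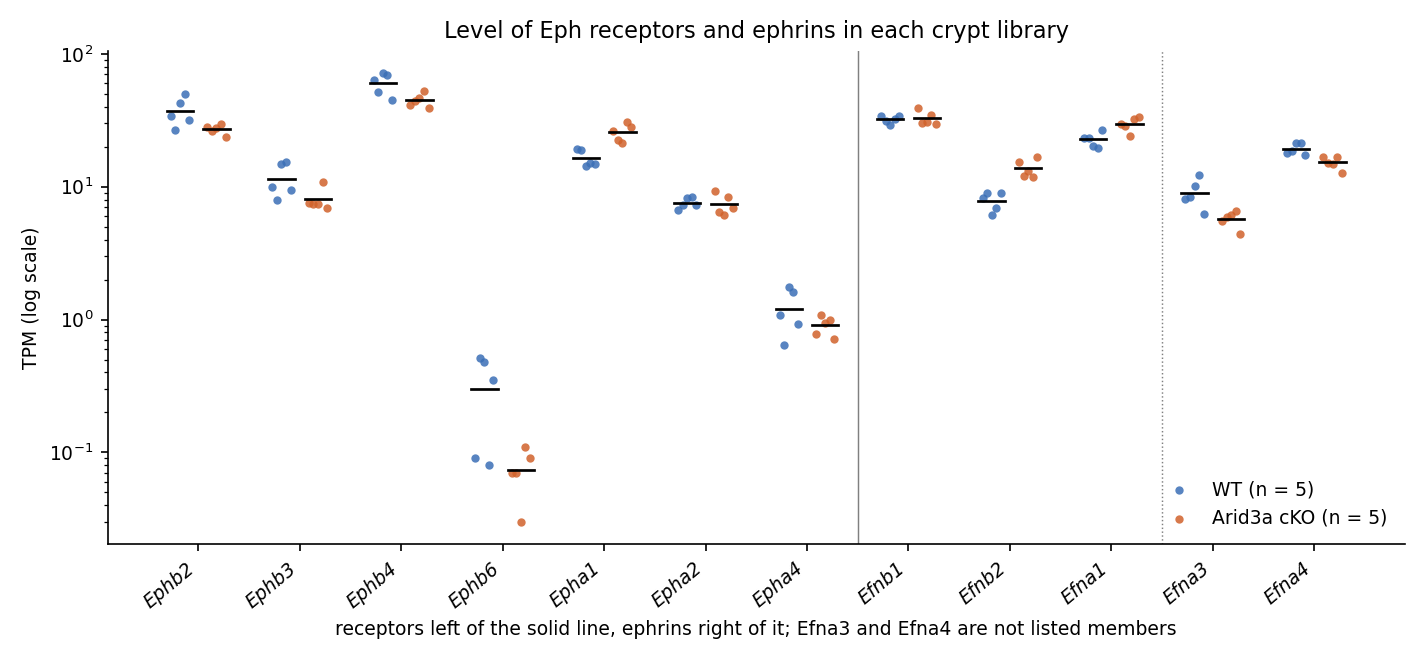
Levels of 7 receptors and 5 ephrins in each crypt library, in TPM on a log axis, with WT and KO libraries as points (n = 5 per genotype). All 5 KO libraries of Epha1 lie at 21.2 TPM or above and all 5 WT libraries at 19.3 TPM or below, while Ephb2, Ephb3 and Ephb4 show a wider spread in WT than in KO.

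Ephb2 (chr4:136647539-136835988), the EphB receptor of the lower crypt, was lower in KO. Its level was 127.6, 108.2, 153.6, 173.7 and 136.1 CPM in WT replicates 1 to 5, and 111.9, 114.3, 120.4, 107.2 and 100.7 CPM in KO replicates 1 to 5. WT 3 and WT 4 were the highest, and WT 2 lay among the KO libraries. The log2 fold change was -0.33 (SE 0.11, 95% interval -0.57 to -0.10, adjusted p = 0.0384 in the quasi-likelihood fit of edgeR). The call was lost when WT 3, 4 or 5 or KO 1, 2, 4 or 5 was left out, with log2 fold changes of -0.41 to -0.24 over the 10 such fits. Leaving out WT 3 and WT 4 together necessarily shrinks the Ephb2 difference and leaves fewer WT libraries. The log2 fold change was then -0.16 (adjusted p = 0.250, edgeR). With animals of the same identifier stem summed it was -0.29 (adjusted p = 0.0577, edgeR).

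Ephb3 (chr16:21204755-21223305), the EphB receptor known for its role in holding Paneth cells at the crypt bottom, did not pass the threshold. Its level was 28.4, 24.9, 45.4, 44.6 and 30.2 CPM in WT replicates 1 to 5 and 24.8, 23.2, 23.8, 33.5 and 22.5 CPM in KO replicates 1 to 5. WT 3 and WT 4 stood above all KO libraries, and the other 3 WT libraries lay within the KO range. Its log2 fold change of -0.44 had a 95% interval of -0.84 to -0.05 (SE 0.18, adjusted p = 0.0890, edgeR). It passed the threshold when WT 2 (-0.54) or KO 4 (-0.56) was left out, and with animals of the same stem summed (-0.40, adjusted p = 0.0481, edgeR).

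Ephb4 (chr5:137350109-137378669), the receptor of ephrin-B2 that is also known from veins, was the most abundant family transcript of the crypt. Its level was 190.4, 166.2, 217.9, 200.3 and 151.4 CPM in WT replicates 1 to 5 and 136.3, 151.2, 156.1, 166.1 and 134.2 CPM in KO replicates 1 to 5. WT 1, 3 and 4 were above all KO libraries, WT 2 was level with KO 4, and WT 5 fell within the KO range. The log2 fold change was -0.32 (SE 0.10, 95% interval -0.53 to -0.10, adjusted p = 0.0338, edgeR). This call was lost without WT 1, 3 or 4 or KO 1, 2 or 5, with values of -0.36 to -0.25 over the 10 fits that leave out 1 library. It was -0.19 (adjusted p = 0.220, edgeR) without WT 3 and WT 4 together, the WT libraries with the highest Ephb4. The endothelial markers were at the edge of detection, with 4 of 10 tested and a summed level of 8.54 to 13.5 CPM in WT and 5.69 to 8.94 CPM in KO. Their part in the Ephb4 difference was not tested.

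Epha1 (chr6:42358487-42373268) was the receptor with the clearest difference, and it was higher in KO. Its level was 44.9, 47.4, 34.1, 34.1 and 39.3 CPM in WT replicates 1 to 5 and 67.9, 60.8, 56.1, 74.2 and 74.9 CPM in KO replicates 1 to 5. Every KO library lay above every WT library. The log2 fold change was 0.74 (SE 0.11, 95% interval 0.49 to 0.99, adjusted p = 0.00138, edgeR), a 1.67-fold difference, and it ranged from 0.61 to 0.81 under all 21 alternative analyses without losing the call. The gene overlaps 1727 bases of Zyx on the opposite strand, and the strand setting of the counting is not given in the sources used here. Zyx itself stood at 52.3 ± 6.07 CPM in WT and 60.1 ± 5.62 CPM in KO and did not pass the threshold (log2 fold change 0.20, adjusted p = 0.123, edgeR).

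Epha2 (chr4:141301240-141329384), a receptor of ephrin-A1, and Epha4 (chr1:77367185-77515088), which binds ephrins of both types, did not pass the threshold. Epha2 ranged from 19.2 to 23.8 CPM in WT and from 19.3 to 28.9 CPM in KO, with a 95% interval of the log2 fold change of -0.16 to 0.31 (adjusted p = 0.633, edgeR). The sign of its value of 0.07 turned under scaling by totals (-0.054). Epha4 was low, at 2.86 to 6.45 CPM in WT and 3.22 to 4.83 CPM in KO, with an interval of -0.73 to 0.20 (adjusted p = 0.380, edgeR). Both pairs of ranges overlapped, and neither interval excludes a moderate difference. Ephb6 (chr6:41605482-41620509), a receptor without kinase activity, had 4 to 16 counts per WT library and 2 to 7 per KO library, so that its difference could not be assessed at this depth.

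Efnb2 (chr8:8617434-8661242), the B-type ephrin with known roles in arteries and on differentiated epithelium, had the greatest increase of the members. Its level was 28.7, 32.7, 22, 19.2 and 31 CPM in WT replicates 1 to 5 and 53.6, 48.8, 51.8, 37.9 and 62.6 CPM in KO replicates 1 to 5. The lowest KO library exceeded the highest WT library. This was a log2 fold change of 0.93 (SE 0.16, 95% interval 0.57 to 1.29, adjusted p = 0.00270, edgeR), a 1.91-fold difference. It stayed between 0.73 and 1.02, past the threshold, under all 21 alternative analyses.

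Efna1 (chr3:89271733-89281142), the lipid-anchored ligand of EphA receptors, also rose. Its level was 24.1, 25.8, 21.5, 19.6 and 31.4 CPM in WT replicates 1 to 5 and 33.3, 33.8, 27.8, 35.1 and 39.2 CPM in KO replicates 1 to 5. Only WT 5 reached into the KO range. Efna1 had a log2 fold change of 0.47 (SE 0.13, 95% interval 0.20 to 0.74, adjusted p = 0.0162, edgeR), and without WT 3 and WT 4 together it was 0.32 (adjusted p = 0.0985, edgeR).

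Efnb1 (chrX:99136130-99148991), the B-type ephrin that partners EphB2 and EphB3, did not pass the threshold. It ranged from 64.8 to 77.8 CPM in WT and from 71.9 to 83.9 CPM in KO, and 4 of the 5 KO libraries lay between 71.9 and 72.9 CPM. The log2 fold change was 0.10 (SE 0.07, 95% interval -0.05 to 0.25, adjusted p = 0.313, edgeR), and -0.032 under scaling by totals. The 2 B-type ephrins thus gave different values in the same libraries, 1.91-fold for Efnb2 and 1.07-fold for Efnb1, although the difference between them was not itself tested.

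**Figure D2:**
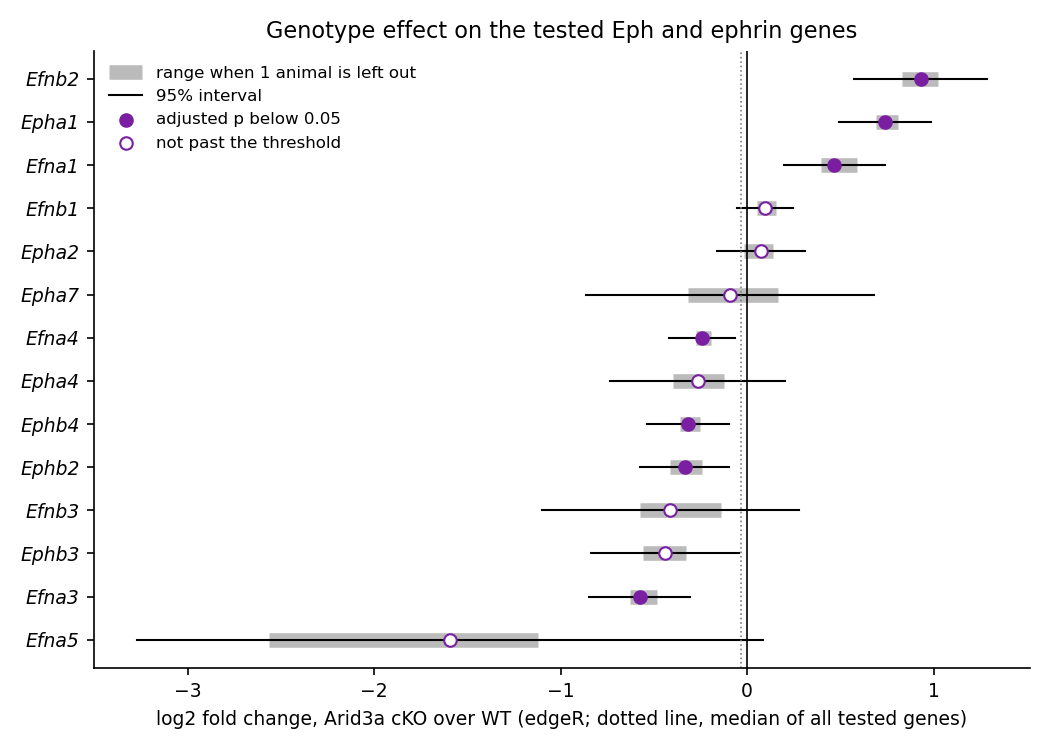
Log2 fold change of each tested Eph and ephrin gene, KO over WT, with its 95% interval (black line), the range over fits that leave out 1 animal (grey bar) and the median of all genes (dotted line at -0.03). Filled points passed an adjusted p of 0.05, and the intervals of Epha1 (0.49 to 0.99) and Efnb2 (0.57 to 1.29) lie farthest above 0.

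Of the other 12 family genes, 5 could be tested and 2 fell, both of them A-type ephrins, where 12.7% of all tested genes fell. Efna3 (chr3:89313899-89322965) was at 13.2, 14.6, 16.5, 18.7 and 11.8 CPM in WT replicates 1 to 5 and at 9.77, 11, 10.3, 10.5 and 8.55 CPM in KO replicates 1 to 5. In CPM every KO library lay below every WT library, as for 7.63% of all tested genes. In TPM the ranges overlapped, with a WT minimum of 6.24 and a KO maximum of 6.55. The log2 fold change was -0.58 (SE 0.13, adjusted p = 0.00632, edgeR). Efna4 (chr3:89333390-89338028) stood at 22.4 ± 1.5 CPM in WT and 18.9 ± 1.59 CPM in KO (log2 fold change -0.24, SE 0.08, adjusted p = 0.0412, edgeR). The Efna4 call was lost in 8 of the 10 fits that leave out 1 library, all but those without WT 1 or KO 1, with values of -0.28 to -0.19, and with stems summed (-0.21, adjusted p = 0.111, edgeR). Efna1, Efna3 and Efna4 are neighbours within 66296 bases of chromosome 3, with no protein-coding gene annotated between them. Efna1 thus rose where its neighbours fell. Epha7, Efna5 and Efnb3 were tested at about 1 CPM or below and did not pass, with log2 fold changes of -0.09, -1.59 and -0.41. Epha3, Epha5, Epha6, Epha8, Epha10, Ephb1 and Efna2 had 0 to 26 counts per library and were not tested, and Epha6 and Epha10 were at 0 in all 10 libraries.

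Levels between genes were compared in TPM, which accounts for transcript length. In WT the order of mean TPM was Ephb4 (60.1), Ephb2 (37.1), Efnb1 (32.2), Efna1 (22.7), Efna4 (19.3), Epha1 (16.5), Ephb3 (11.5), Efna3 (9), Efnb2 (7.81), Epha2 (7.56) and Epha4 (1.21). Among these neighbours in WT, the ranges were separate only between Efnb1 and Efna1 and between Epha2 and Epha4. In KO the order was Ephb4 (44.7), Efnb1 (32.8), Efna1 (29.5), Ephb2 (27.1), Epha1 (25.8), Efna4 (15.2), Efnb2 (13.8), Ephb3 (8.02), Epha2 (7.44), Efna3 (5.70) and Epha4 (0.904). Here Ephb4 and Efnb1, Epha1 and Efna4, Efnb2 and Ephb3, and Efna3 and Epha4 had separate ranges. Efnb2 thus passed from below Ephb3 in mean TPM in WT to above it in every KO library.

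The summed TPM of all 14 receptors was 134.6 ± 22.9 in WT and 114.3 ± 11.3 in KO, and that of all 8 ephrins was 91.9 ± 2.56 and 97.6 ± 7.09. The ratio of receptor to ephrin transcripts was 1.47 ± 0.268 (range 1.16 to 1.75) in WT and 1.17 ± 0.098 (1.07 to 1.3) in KO, with overlapping ranges. The mix within each sum shifted more clearly. Epha1 made up 12.7 ± 3.22% of receptor TPM in WT and 22.6 ± 2.80% in KO, without overlap, while Ephb4 went from 44.5% to 39.1% and Ephb2 from 27.4% to 23.8% with overlap. Of the ephrin TPM, Efnb2 made up 8.49 ± 1.23% in WT and 14.2 ± 2.07% in KO, and Efna4 21.0 ± 2.41% and 15.6 ± 1.48%, both without overlap. The share of Efnb1 was 35.0% in WT and 33.6% in KO. These shares add up within a library, so the rise of a transcript lowers the share of the others.

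**Figure D3:**
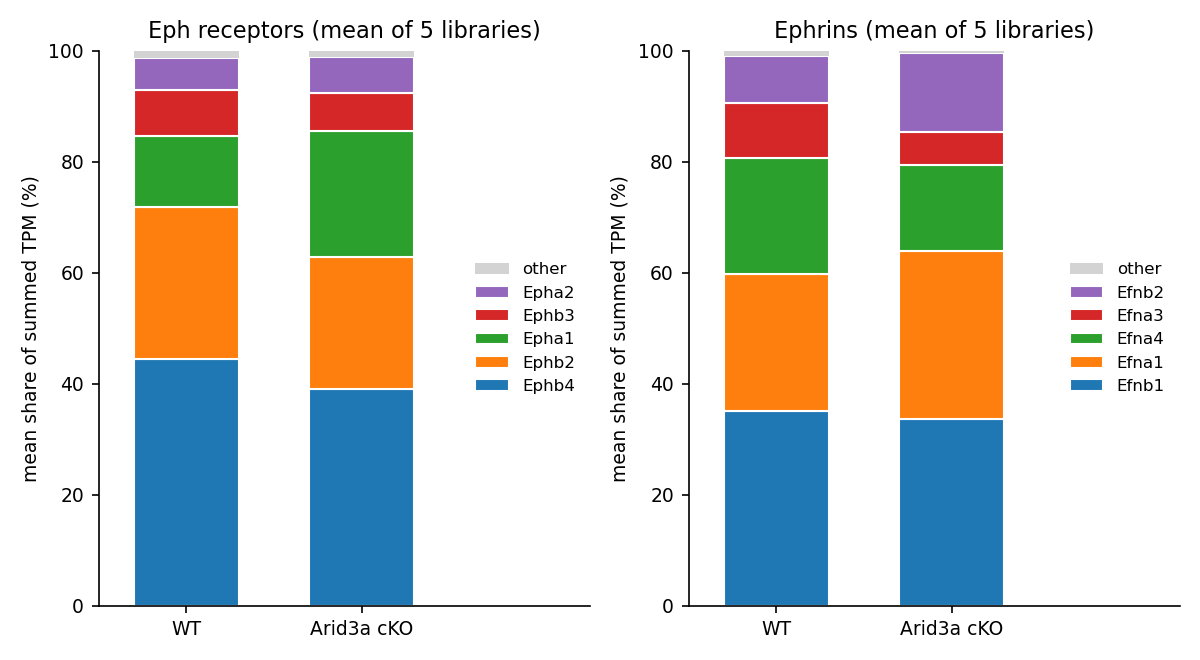
Mean share of each gene in the summed TPM of all Eph receptors and of all ephrins, in percent, for WT and KO (n = 5 libraries each). The segment of Epha1 is 12.7% in WT and 22.6% in KO, and that of Efnb2 8.49% and 14.2%.

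Receptors were then set against their known ligands in 4 pairs, as the log2 ratio of TPM (with 0.5 added) within each library, which needs no scaling between libraries. The ratio of Ephb4 to Efnb2 was 7.74, 5.76, 11.6, 10.1 and 5.01 in WT replicates 1 to 5 and 2.70, 3.62, 3.52, 4.46 and 2.37 in KO replicates 1 to 5. All KO libraries were below all WT libraries. On the log2 scale the ratio was 2.86 ± 0.50 in WT and 1.67 ± 0.35 in KO, a difference of -1.19 (p = 0.00794 in a two-sided exact permutation test, which can go no lower, and 0.0317 adjusted over the 4 pairs). The log2 ratio of Ephb2 to Efnb1 was 0.17 ± 0.38 in WT and -0.27 ± 0.13 in KO, a difference of -0.44 (exact permutation p = 0.0238, adjusted 0.0476), so that mean Ephb2 exceeded Efnb1 in WT but not in KO. The groups overlapped here, since WT 2 and WT 5 had ratios of 0.862 and 0.936 and the KO libraries 0.718 to 0.905. Without WT 3 and WT 4 the difference was -0.17 for Ephb2 to Efnb1 (adjusted exact permutation p = 0.238), and that call was also lost without WT 3 or 4 or any KO library (-0.47 to -0.33). For Ephb4 to Efnb2 the difference without WT 3 and WT 4 together was -0.87. The genotypes were already separate in the full set, and leaving out libraries cannot make them overlap. Their separation in these subsets is therefore no further test. The adjusted exact permutation p of this pair missed the threshold without KO 2, 3, 4 or 5 (0.0635, with -1.3 to -1.08). It also missed the threshold without WT 3 and WT 4 (0.0714). Only 126 and 56 assignments remained in these tests.

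The other pairs did not pass the threshold after adjustment. Ephb3 to Efnb1 differed by -0.49 (exact permutation p = 0.0714, adjusted 0.0714), and by -0.59 without WT 2 (adjusted 0.0423, exact permutation). Epha2 to Efna1 differed by -0.41 (exact permutation p = 0.0397, adjusted 0.0529), and by -0.48 without WT 5 and -0.49 without KO 1 (adjusted 0.0317 each, exact permutation). In all 4 pairs the mean ratio of receptor to ligand was lower in KO, with Efnb1 as the ligand of both Ephb2 and Ephb3. Epha1 was not among the receptors of these pairs. Its mean TPM went from 16.5 in WT to 25.8 in KO, beside 22.7 and 29.5 for Efna1.

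**Figure D4:**
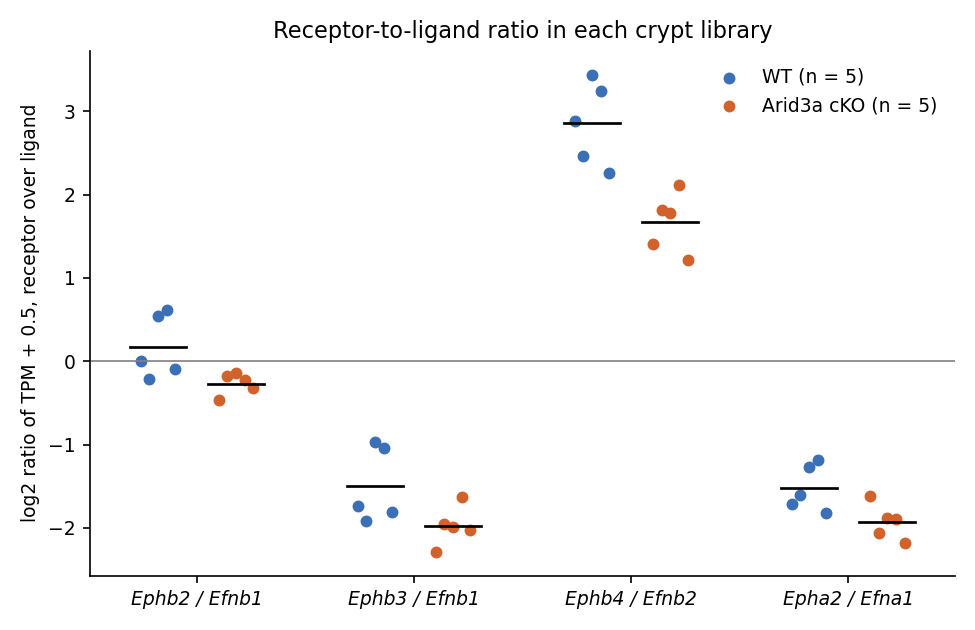
Log2 ratio of receptor TPM to ligand TPM in each library for 4 receptor and ligand pairs, with the mean of each genotype as a bar (n = 5). The KO libraries of Ephb4 to Efnb2 all lie below the WT libraries (means 1.67 and 2.86), and the other 3 pairs overlap.

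The genes that transmit Eph and ephrin signals changed in few cases. Of 24 genes on the receptor side, 23 were tested, 3 rose and 1 fell, with a median log2 fold change of 0.07. Kalrn, a guanine nucleotide exchange factor, was at 12.3 ± 5.83 CPM in WT and 30.2 ± 5 CPM in KO (log2 fold change 1.29, SE 0.28, adjusted p = 0.00823, edgeR). Tiam1, a Rac exchange factor that binds EphA2 and ephrin-B1, was at 42.7 ± 6.85 and 29.1 ± 5.23 CPM (-0.55, SE 0.13, adjusted p = 0.0108, edgeR). The groups did not overlap for either gene, where 12% of all tested genes were separated upward and 7.63% downward. The Tiam1 call was lost without WT 3 and WT 4 together (adjusted p = 0.0815, edgeR). The tyrosine kinase Src (0.28, adjusted p = 0.00778, edgeR) and the serine/threonine kinase Rock2 (0.24, adjusted p = 0.0216, edgeR) rose by smaller amounts, and neither passed under scaling by totals (0.16 and 0.11). Src did not pass on log2(TPM + 0.5) with limma either. The Rock2 call was also lost without KO 1 (0.23), on log2(TPM + 0.5) with limma (0.14), with effective length as an offset (0.24), with the replicate number as a block (0.25) and with animals of the same stem summed (0.22).

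On the ephrin side 5 of 6 genes were tested and 1 rose, Sdcbp, a PDZ scaffold of B-type ephrins. Its log2 fold change was 0.27 (adjusted p = 0.00689, edgeR). That call was lost under scaling by totals (0.14) and on log2(TPM + 0.5) with limma. Among proteases that cleave these proteins, the metalloprotease Mmp14 fell by 0.29 on the log2 scale (adjusted p = 0.0397, edgeR). Adam10, the main ephrin sheddase, did not pass the threshold (0.12). The Mmp14 call was lost in 7 of the 10 fits that leave out 1 library, all but those without WT 2, WT 5 or KO 4 (-0.33 to -0.24). These counts stand beside 15.6% of all tested genes higher and 12.7% lower.

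Ephb2 and Ephb3 are known to belong to the WNT target genes of the crypt. Of 12 other such genes tested, 6 fell (Axin2, Ascl2, Myc, Nkd1, Tcf7 and Tnfrsf19) and none rose, where 12.7% of all tested genes fell, and the median log2 fold change was -0.35, against -0.33 for Ephb2 and -0.44 for Ephb3. Of 4 stem cell markers 3 fell, Olfm4 (-0.50, adjusted p = 0.0250, edgeR), Ascl2 (-0.57, adjusted p = 0.0284, edgeR) and Smoc2 (-0.32, adjusted p = 0.0381, edgeR), while Lgr5, at 49.6 ± 18.7 CPM in WT and 44.1 ± 8.45 CPM in KO, did not pass the threshold. Ascl2 and Lgr5 are also among the 12 WNT targets, so the lists are not separate. The summed level of these 4 markers was 4527 to 7479 CPM in WT and 3529 to 5380 CPM in KO. Axin2, a negative regulator of the WNT pathway, was at 213.1 ± 33.0 and 155.5 ± 12.7 CPM (log2 fold change -0.46, adjusted p = 0.00746, edgeR). The Ascl2 call was lost without WT 2, 3 or 4 or KO 1, 3 or 5 (-0.70 to -0.47 over the 10 fits), and the Nkd1 call without WT 1, 2, 3 or 4 or KO 1, 2 or 5 (-0.75 to -0.51). Without WT 3 and WT 4 together, the calls of Ascl2, Myc, Nkd1 and Tnfrsf19 were lost, and those of Axin2 and Tcf7 were kept. Of 5 Paneth cell markers 4 fell, beside the same 12.7% of all genes, and their sum was 7828 to 13955 CPM in WT and 5552 to 7621 CPM in KO.

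Villus markers moved with some of the members. Of 10 markers of villus enterocytes, 9 rose, where 15.6% of all tested genes rose. The summed level of the 10 markers was 5337, 8192, 2837, 1717 and 4050 CPM in WT replicates 1 to 5 and 13835, 12852, 9525, 16758 and 17637 CPM in KO replicates 1 to 5. WT 3 and WT 4 had the lowest sums, the highest Ephb2 and Ephb3 and the lowest Epha1, Efnb2 and Efna1. Leaving both out therefore had to shrink the genotype differences of these genes. Within WT, the library with more villus marker transcript had more Epha1 in 10 of the 10 pairs of libraries, and within KO also in 10 of 10. For Ephb2 the order was opposite in 10 of 10 pairs in each genotype. Efna1 followed the villus sum in 8 of 10 pairs in WT and 9 of 10 in KO, and Efnb2 in 9 and 6. Ephb3 ran opposite to it in 9 pairs in WT and 5 in KO, and Ephb4 in 7 and 7. Epha2 followed the villus sum in 3 pairs in WT and 7 in KO, Epha4 in 2 and 5, and Efnb1 in 7 and 6. These pairs reuse 5 libraries, which share their depth and scaling, so they are a description. The part of villus enterocyte content in the genotype differences was not tested, and in bulk RNA a different number of cells and a different amount of RNA per cell cannot be told apart.

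**Figure D5:**
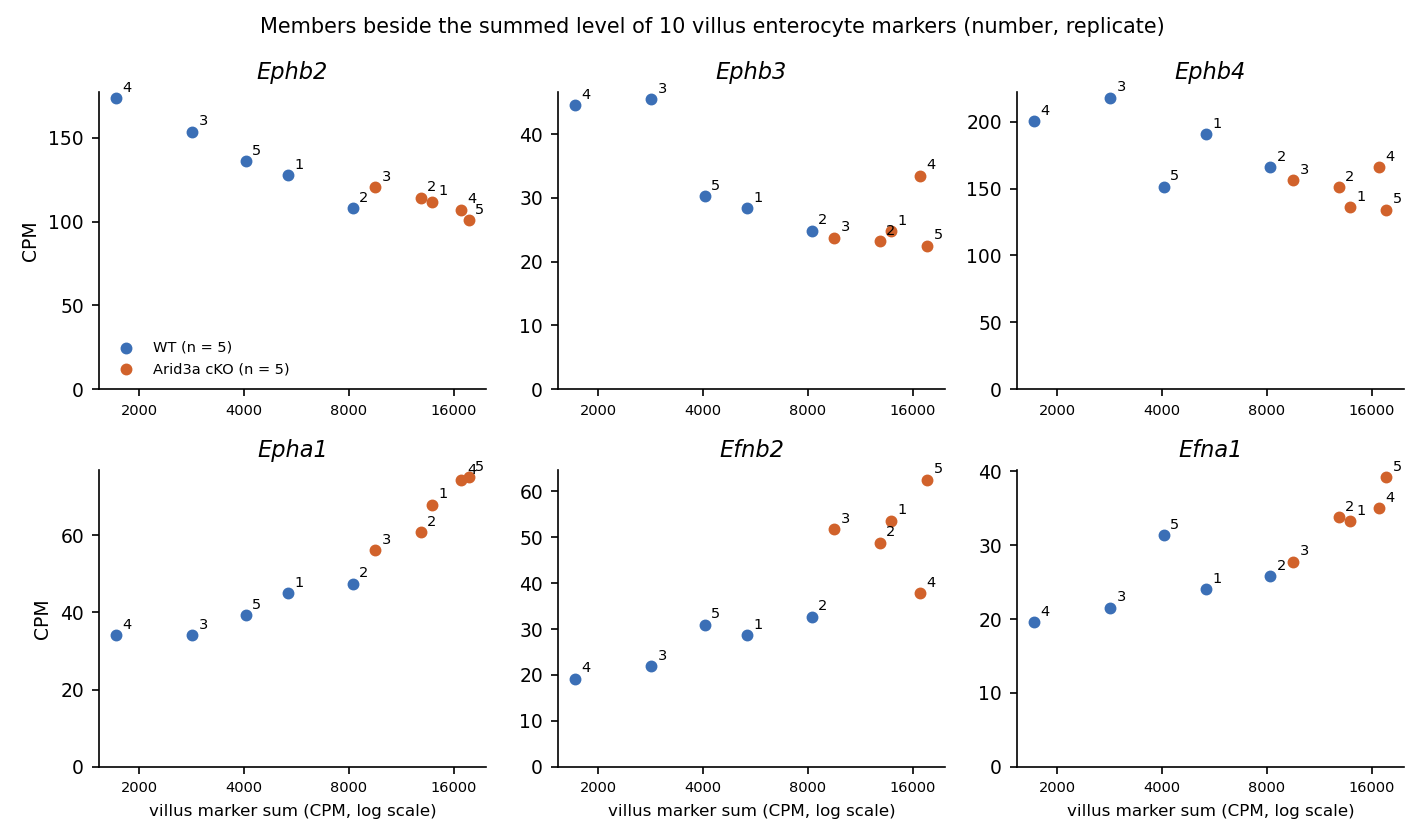
CPM of members in each library against the summed CPM of 10 villus enterocyte markers (log axis), with replicate numbers beside the points. The KO libraries lie at sums of 9525 to 17637 CPM and the WT libraries at 1717 to 8192 CPM, and the order of Epha1 follows the sum within each genotype whereas that of Ephb2 runs opposite to it.

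Summed markers of non-epithelial cells overlapped between the genotypes. Summed levels of mesenchymal markers were 12.0 to 85.4 CPM in WT and 9.64 to 136.0 CPM in KO, with 1 of 10 genes called (Acta2, lower). Immune markers were at 76.4 to 156.9 and 37.8 to 155.1 CPM, with 0 of 9 called. Of 5 markers of glia and neurons 1 could be tested, and it was not called. Of the endothelial markers 1 of the 4 tested fell, Pecam1.

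The genes whose profile over the 10 libraries was closest to selected members were found by the root mean square difference of centred log2 CPM among 10470 genes. For Ephb2 these were Slfn9 (0.0476), Tcf20 (0.0549) and Pitrm1 (0.0563), and for Ephb3 Tcaf1 (0.0958), Ptprs (0.108) and the WNT5A receptor Ror2 (0.113). For Efnb1 they were Arf6 (0.0451), Dmac2 (0.0482) and Tbc1d13 (0.0526), and for Efna1 Dapp1 (0.101), Chmp2b (0.106) and the membrane protease inhibitor Spint1 (0.109). For a given member, a smaller value means a closer profile. The measure is not scaled to the spread of each gene, so values of different members cannot be compared.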

How the data were processed

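RNA-seq libraries of polyadenylated RNA from 5 WT and 5 Arid3a KO crypt samples were analysed. Per the methods and labels, the authors aligned reads with STAR and estimated expected counts with RSEM against Ensembl GRCm38. They deposited expected counts, TPM (scaled by effective length and library total) and effective lengths per gene, unfiltered. RSEM divides multi-mapping reads, so near-identical genes share counts. The authors' model in DESeq2 also held time, which has 1 level here.

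Expected counts were rounded and fitted in R 4.3.3 with edgeR 4.0.16 (TMM, filterByExpr with a minimum count of 10 and a total of 15, robust quasi-likelihood test, Benjamini-Hochberg adjustment over 14719 genes, threshold 0.05). Totals of 27050455 to 31053622 per library limit precision for genes near 1 CPM, and these counts carry no molecular identifiers. Genes without a symbol took 0.0193% of counts and stayed in the totals. The p-values set the genotype difference against the spread between these samples. The main tests treat the samples as independent, although their identifiers fall into 6 stems. Ratios in TPM were compared by two-sided exact permutation tests over 252 assignments. No 2 libraries were identical. Gene coordinates are from GENCODE M21 (GRCm38) and promoter windows from RefSeq. Alternatives used DESeq2 1.42.0, limma 3.58.1 (also log2 of TPM + 0.5), other scalings and filters, effective length as an offset, a replicate block, stems summed, and omitted animals. The fits were tested on simulated data.

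The members and lists were chosen with earlier results of these data known. Named genes were all family genes, the called genes of the signaling and WNT lists, Arid3a, genes overlapping a member, and the 3 closest profiles of selected members. Some genes of these lists are not reported here.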

Additional observations from a re-analysis of the deposited data

Results flagged for a closer look

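In 3 of the 36 groups of 5 libraries examined, 1 library lay far from the others (gap over range above Dixon's critical value of 0.71). Chance alone gives about 1 in 20 such groups. Ephb3 in KO 4 was 33.5 CPM, where the other KO libraries were at 22.5 to 24.8 CPM. Efnb1 in KO 1 was 83.9 CPM, where the others were at 71.9 to 72.9 CPM. Efna5 in WT 3 was 1.05 CPM, where the others were at 0.207 to 0.436 CPM.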

How the results depend on the processing

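Epha1, Efnb2, Efna3, Kalrn, Axin2 and Tcf7 kept direction and call under all 21 alternatives, and Arid3a under the 20 that gave it a value. The number of members higher in KO stayed at 2 to 3. The number lower was 2, but 1 with limma-voom or with effective length as an offset, 0 without WT 3 and 4 together, and 0 to 3 when 1 library was left out. The direction of Epha2, Epha4, Efnb1 and Epha7, which did not pass the threshold, was unsettled. Ephb3, which did not pass either, stayed negative under all 21 alternatives (-0.57 to -0.12). Epha2 became -0.054 under scaling by totals and -0.035 on log2(TPM + 0.5) with limma, and ranged from -0.014 (without KO 1) to 0.14 (without KO 3) when 1 library was left out. Epha4 became 0.044 without WT 3 and 4, and Efnb1 -0.032 under scaling by totals. Epha7 became 0.072 with effective length as an offset, 0.017 with stems summed, 0.17 without WT 3, 0.10 without KO 1 and 0.12 without WT 3 and 4. Of all genes, the number higher in KO fell from 2298 to 1414 on TPM with limma and 1472 without WT 3 and 4, with 1760 to 2572 when 1 library was left out. The number lower was 1869, and became 4030 under scaling by totals, 1004 with stems summed, 671 without WT 3 and 4, and 1131 to 2112 when 1 library was left out, the lowest of these without WT 4. The causes were not tested. With stems summed the number of members lower was again 2, but Ephb3 passed (-0.40) and Ephb2 did not (-0.29).

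With the replicate number as a block, 1191 genes were lower, Ephb2 was lost (-0.32, adjusted p = 0.0655, edgeR) and Ephb3 passed (-0.41, adjusted p = 0.0398, edgeR). Deviations of same-numbered samples correlated at -0.20 to 0.10, and for 0 of 5 numbers was the best match the own number, so the numbers do not pair the samples. In sign flips of the replicate block, the pair differences of -0.44 (Ephb2 to Efnb1) and -1.19 (Ephb4 to Efnb2) had adjusted exact p = 0.125, where 0.0625 is the smallest unadjusted p possible.

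When 1 library was left out, the pair differences ranged from -0.54 to -0.33 (Ephb2 to Efnb1), -0.59 to -0.35 (Ephb3 to Efnb1), -1.34 to -1.05 (Ephb4 to Efnb2) and -0.49 to -0.32 (Epha2 to Efna1). Without WT 3 and 4 they were -0.17 for Ephb2 to Efnb1 and -0.87 for Ephb4 to Efnb2. The genotypes were separate for the latter in the full set, which leaving out libraries cannot change. With stems averaged they were -0.39 and -1.18, where 3 against 3 cannot give an exact p below 0.1. Depth limits Ephb6, Epha7, Efna5 and Efnb3, whose counts are too few for small differences to be detected.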
